A study of Mus musculus with 30 samples.

Results

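The fracture callus of diet-induced obese (DIO) mice was compared with that of lean mice on day 7 after fracture (d7), across every gene that could be tested. The comparison used the 6 d7 libraries of the 30 in the series, 3 from lean mice and 3 from DIO mice, chosen by their labels for diet and day, and 15753 of the 43629 genes in the table passed the filter on low counts. All mice were C57BL/6J males of 20 weeks with an open fracture of the tibia stabilised by an intramedullary nail; the DIO mice had been made obese by a high-fat diet. Each library was made from poly(A) RNA of 1 callus from 1 mouse, and the labels call the 3 libraries of a diet biological repeats. The callus is a mixed tissue, and in such bulk samples fewer cells of a type cannot be told apart from less RNA per cell.

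A fracture fixed this way heals mostly through cartilage. Progenitors at the gap become chondrocytes that lay down a matrix of type II collagen and aggrecan, the chondrocytes enlarge (hypertrophy) and their matrix mineralises, vessels enter, osteoclasts resorb the calcified cartilage and osteoblasts replace it with woven bone. Immune cells are present throughout and supply signals to both osteoclasts and progenitors. The comparison asks which of these genes differed between DIO and lean callus on d7. The labelled tissue was checked against its markers: the lists for cartilage matrix, bone matrix and osteoclasts were expressed in all 6 libraries, with Col2a1 at 2128 CPM (counts scaled to library size) or more and Acp5 at 381 CPM or more in each.

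Total counts were 14888242 to 17116460 per library. Mitochondrial transcripts took 1.12% to 1.7% of the counts in the lean and 1.05% to 2.44% in the DIO libraries. DIO mouse 3 stood apart from the other DIO calli: on the first principal component, which held 46.9% of the variance, it scored −2.34 against 36.5 and 66.6 for the other DIO mice and −24.3 to −46.1 for the lean mice. On the second component, which held 17.3%, all other calli, lean and DIO, scored 2.3 to 25.1 and DIO mouse 3 scored −51.1. Its summed erythroid list was 9197 CPM against 1990 and 1065 CPM in DIO mice 1 and 2, and its summed neutrophil list was 13660 CPM against 7071 and 2853 CPM. The lean sums were 4294, 9190 and 4252 CPM for the erythroid and 9328, 14020 and 11580 CPM for the neutrophil list. In these sums DIO mouse 3 lay within or at the edge of the lean range and apart from the other DIO mice. The lists of blood and immune cells are therefore given with and without it.

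Of the genes tested, 366 passed an adjusted p of 0.05 (edgeR's quasi-likelihood test, Benjamini-Hochberg adjustment), which is 2.32% of the genes. In the DIO callus 221 genes were higher (1.4% of those tested) and 145 lower (0.92%), and 183 of the former and 115 of the latter differed by more than 2-fold. The median log2 fold change over all genes tested was −0.00126. Values of the diets did not overlap for 10.7% of the genes in the direction of higher DIO values and for 11.3% in the direction of lower ones. The counts depended strongly on single calli: leaving out lean mouse 1, 2 or 3 gave 34, 29 or 242 genes, and leaving out DIO mouse 1, 2 or 3 gave 184, 165 or 936 genes. Without DIO mouse 3, 378 genes were higher (2.33%) and 558 lower (3.44%).

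10 genes that are named here passed the test in each of the 6 fits that left out 1 callus: Ucma, Scrg1, Gdf5, Dkk1, Sost, Bglap, Slc2a1, Bnip3, P4ha2 and Chit1. They include genes of cartilage, bone, WNT antagonism, glucose uptake and hypoxia, and a chitinase. Sost did not pass when the 24 libraries of d3 to d10 or all 30 libraries were fitted together.

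The largest increase was that of Ucma, a small secreted protein of cartilage (ENSMUSG00000026668, chr2:4976122-4985748, plus strand, GRCm38). It was at 5.86, 7.76 and 14.3 CPM in lean mice 1, 2 and 3 and at 173, 189 and 263 CPM in DIO mice 1, 2 and 3. Every DIO callus was above every lean callus by a wide margin. The log2 fold change was 4.49 ± 0.34 (SE; adjusted p = 0.001795, edgeR), or 22.4-fold. Chit1, a chitinase best known from activated macrophages, was at 0.625, 1.03 and 0.951 CPM in the lean and at 10.9, 15.9 and 16.9 CPM in the DIO calli, a log2 fold change of 4.06 ± 0.33 (adjusted p = 0.001795, edgeR). Most of the other large increases were in genes of low level. Magel2, an imprinted gene of the MAGE family, rose by 4.28 on the log2 scale, as did Orm2, an acute-phase plasma protein, which was listed at 0 in 2 of the 3 lean calli and at 1.84 to 3.64 CPM in the DIO calli. Adm2, an adrenomedullin-related peptide, rose by 3.95, Ocm, a calcium-binding protein, by 3.75, Plcxd1 by 3.59, Rfx8 by 3.45, Brinp3 by 3.41, Chl1, a neural adhesion molecule, by 3.36 and Cmtm5 by 3.24. Plcxd1 shares 29.3% of its exon length with Gtpbp6 on the opposite strand, and the strand setting of the counting is not given in the sources used here.

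Cartilage genes were higher in the DIO callus. Of 23 tested genes of the cartilage matrix list (24 listed), 7 rose and 0 fell, all 23 had the higher mean in the DIO callus, and the median log2 fold change was 1.95. The calli did not overlap for 16 of the 23. The 7 that rose were Ucma, Epyc, Cnmd, Snorc, Col9a3, Matn3 and Fmod. The number of members called depended on the lean calli: it was 1 without lean mouse 1, 2 without lean mouse 2 and 15 without lean mouse 3, which had the highest values of most cartilage genes among the lean mice, and 3, 6 and 7 without DIO mouse 1, 2 and 3; DESeq2 called 12 on all 6 libraries.

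Col2a1, the type II collagen that forms the fibrils of cartilage (chr15:97975602-98004695, minus strand), was at 3112, 2128 and 9529 CPM in the lean and 21630, 9249 and 26130 CPM in the DIO calli. DIO mouse 2 lay just below lean mouse 3, so the diets overlapped, and the difference of 1.95 ± 0.57 on the log2 scale did not pass the test (adjusted p = 0.1206, edgeR). Acan, the aggregating proteoglycan that gives cartilage its resistance to compression, was at 587, 448 and 1505 CPM against 3074, 2222 and 3763 CPM. Its diets did not overlap, with a log2 difference of 1.83 ± 0.43, yet it too missed the threshold (adjusted p = 0.06137), which it passed in 5 of 16 alternatives, among them DESeq2, limma-voom and the fit without lean mouse 3. Col9a3, a chain of the type IX collagen that coats type II fibrils, was at 320, 243 and 862 CPM in the lean and 2376, 1794 and 3292 CPM in the DIO calli and rose by 2.39 ± 0.46 (adjusted p = 0.03074). Epyc, a small proteoglycan of early cartilage, went from 0.796, 0.285 and 1.23 CPM to 14.0, 6.22 and 9.05 CPM, a log2 fold change of 3.65 ± 0.50 (adjusted p = 0.01379). Of its exon length 40.6% lies opposite another gene. Cnmd, the cartilage protein chondromodulin that keeps vessels out, rose by 2.40, Matn3, a matrilin, by 2.45, Snorc, a chondrocyte proteoglycan, by 2.08 and Fmod, fibromodulin, by 1.19.

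The regulators of chondrocytes moved with the matrix. Of 18 tested members 9 rose and 0 fell, all 18 had the higher mean in the DIO callus, the median was 1.45, and 12 did not overlap. Sox9, the transcription factor that commits cells to cartilage (chr11:112782224-112787760, plus strand), was at 30.2, 20.4 and 73.9 CPM in the lean and at 146, 156 and 162 CPM in the DIO calli. The DIO calli lay close together and lean mouse 3 was the highest of the lean calli. Sox9 rose by 1.90 ± 0.39 (adjusted p = 0.04103, edgeR). Scrg1, a gene induced during chondrocyte differentiation, was at 8.47, 12.7 and 19.8 CPM against 77.3, 95.6 and 94.4 CPM and rose by 2.71 ± 0.29 (adjusted p = 0.0047). Gdf5, a joint and cartilage morphogen of the BMP family, was at 2.90, 2.74 and 4.98 CPM against 14.5, 27.96 and 22.8 CPM. It rose by 2.62 ± 0.33 (adjusted p = 0.009316, edgeR), and 40.3% of its exon length lies opposite Gm15557. Wwp2, the ubiquitin ligase whose gene hosts the cartilage microRNA miR-140, rose by 1.63 and Fgfr3, a receptor that restrains chondrocyte proliferation, by 1.21. The other 4 called were Foxa3 (2.18), Nkx3-2 (2.85), Pax1 (2.47) and Scin (1.48), of which Nkx3-2 and Pax1 are transcription factors of early cartilage. These 2 were at very low levels, with means of 0.17 and 0.32 CPM in the lean and 1.27 and 1.82 CPM in the DIO calli. Both were called in 0 of the 6 fits that left out 1 callus. Without lean mouse 1 or lean mouse 2 the list had 2 members called, without DIO mouse 1 3 and without DIO mouse 3 8.

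**Figure D1:**
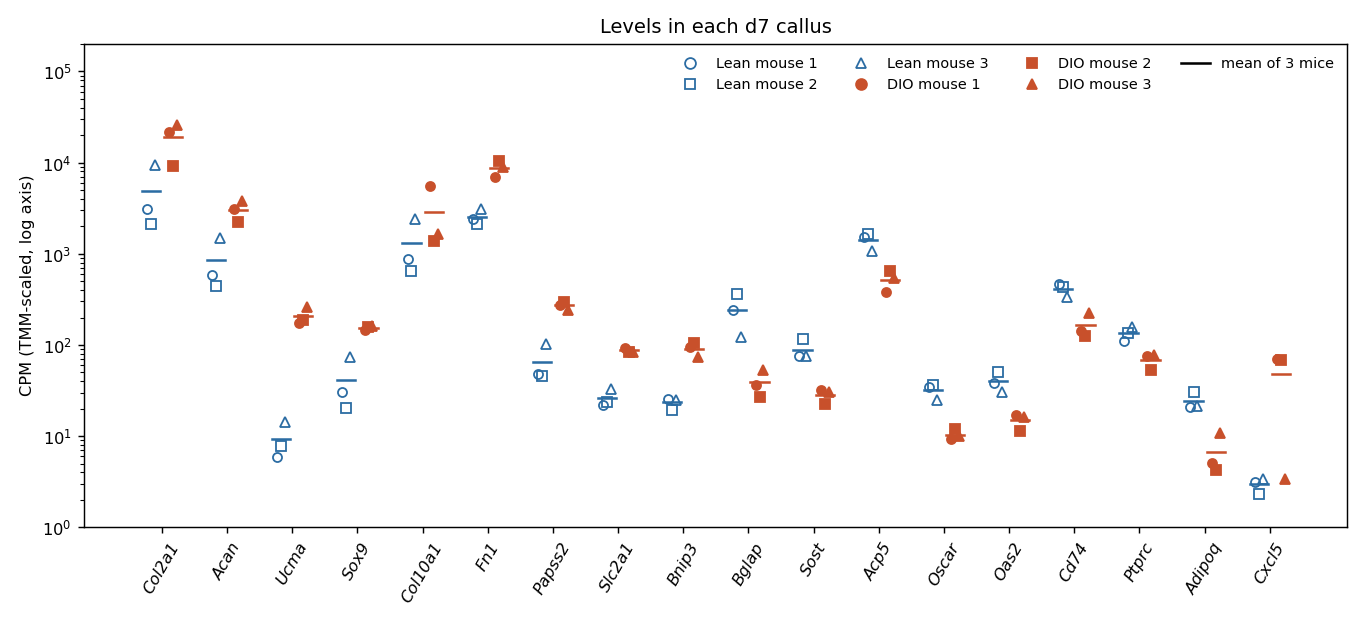
Level of 18 genes in each d7 callus, in CPM on a logarithmic axis; each point is 1 mouse, coloured by diet, and the bar is the mean of 3 mice. Ucma and Slc2a1 were higher and Bglap and Oscar lower in every DIO callus than in every lean callus, whereas Col2a1, Col10a1 and Cxcl5 overlapped.

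The list of hypertrophy genes gave no calls by edgeR. Foxa3 and Scin, called above among the chondrocyte regulators, were not in it. Of 16 tested members of the hypertrophic chondrocyte list 0 rose and 0 fell by edgeR, the median was 0.0945, 3 had an unadjusted p under 0.05 and DESeq2 called 2. Col10a1, the collagen specific to hypertrophic chondrocytes, was at 874, 645 and 2399 CPM in the lean and 5575, 1398 and 1634 CPM in the DIO calli. Only DIO mouse 1 exceeded the highest lean callus, and the log2 difference of 1.14 ± 0.60 did not pass (adjusted p = 0.3911). Ihh, the hedgehog ligand of prehypertrophic chondrocytes, had a difference of 1.36 (adjusted p = 0.1415), and Vegfa, the angiogenic factor of hypertrophic cartilage, one of 0.07 (adjusted p = 0.9004). In the hedgehog and PTHrP list 0 of 15 were called by edgeR, with 3 under an unadjusted p of 0.05 and 2 called by DESeq2. The difference in response between hypertrophic and other cartilage genes was not tested.

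Enzymes that build the sugar chains of proteoglycans were higher. In the glycosaminoglycan list 7 of 40 tested genes rose and 0 fell, the median was 0.411, and the calli did not overlap for 17 with higher and 2 with lower DIO values. Papss2, which makes the sulfate donor, was at 48.0, 45.6 and 103 CPM in the lean and 275, 298 and 242 CPM in the DIO calli. No DIO callus came near the highest lean callus, and the gene rose by 2.05 ± 0.30 (adjusted p = 0.01577, edgeR). Slc26a2, the sulfate importer whose loss causes chondrodysplasia, rose by 1.88, Chst11, a chondroitin sulfotransferase, by 1.24 and Csgalnact1, which starts chondroitin chains, by 1.64. Ugdh and Slc35d1, which make and carry nucleotide sugars, rose by 1.11 and 1.36, and Extl1, a heparan sulfate glycosyltransferase, by 1.45. Without lean mouse 1 or 2, 0 members of the list were called; without DIO mouse 1 or 2 the count was 3 or 4, and without DIO mouse 3 10 rose and 2 fell.

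Some genes of the fibrous and provisional matrix were higher. Of 38 tested genes 5 rose and 0 fell, the median was 0.566, and 16 did not overlap with higher DIO values. Fn1, fibronectin (chr1:71585520-71653200, minus strand), was at 2386, 2104 and 3110 CPM in the lean and 6915, 10390 and 8867 CPM in the DIO calli. The 3 DIO calli were all above the lean calli, with a log2 fold change of 1.78 ± 0.26 (adjusted p = 0.01544, edgeR). Loxl2 and Loxl3, which cross-link collagen, rose by 1.14 and 1.32, Tnn, tenascin-N, by 1.32 and Ccn2, the matricellular factor CTGF, by 0.95. Loxl2 has a near-identical copy, Gm21451, and reads could be split between them. The list had 0 members called without lean mouse 1 or 2, 2 and 3 without DIO mouse 1 and 2 and 8 without DIO mouse 3. Among 30 genes of the secretory pathway 1 was called, near the share over all genes (2.32%). It was Creb3l2, a transcription factor of the secretory load in chondrocytes, which rose by 0.81 (adjusted p = 0.04717, edgeR). The list median was 0.442, with no overlap for 15 genes with higher and 1 with lower DIO values.

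**Figure D2:**
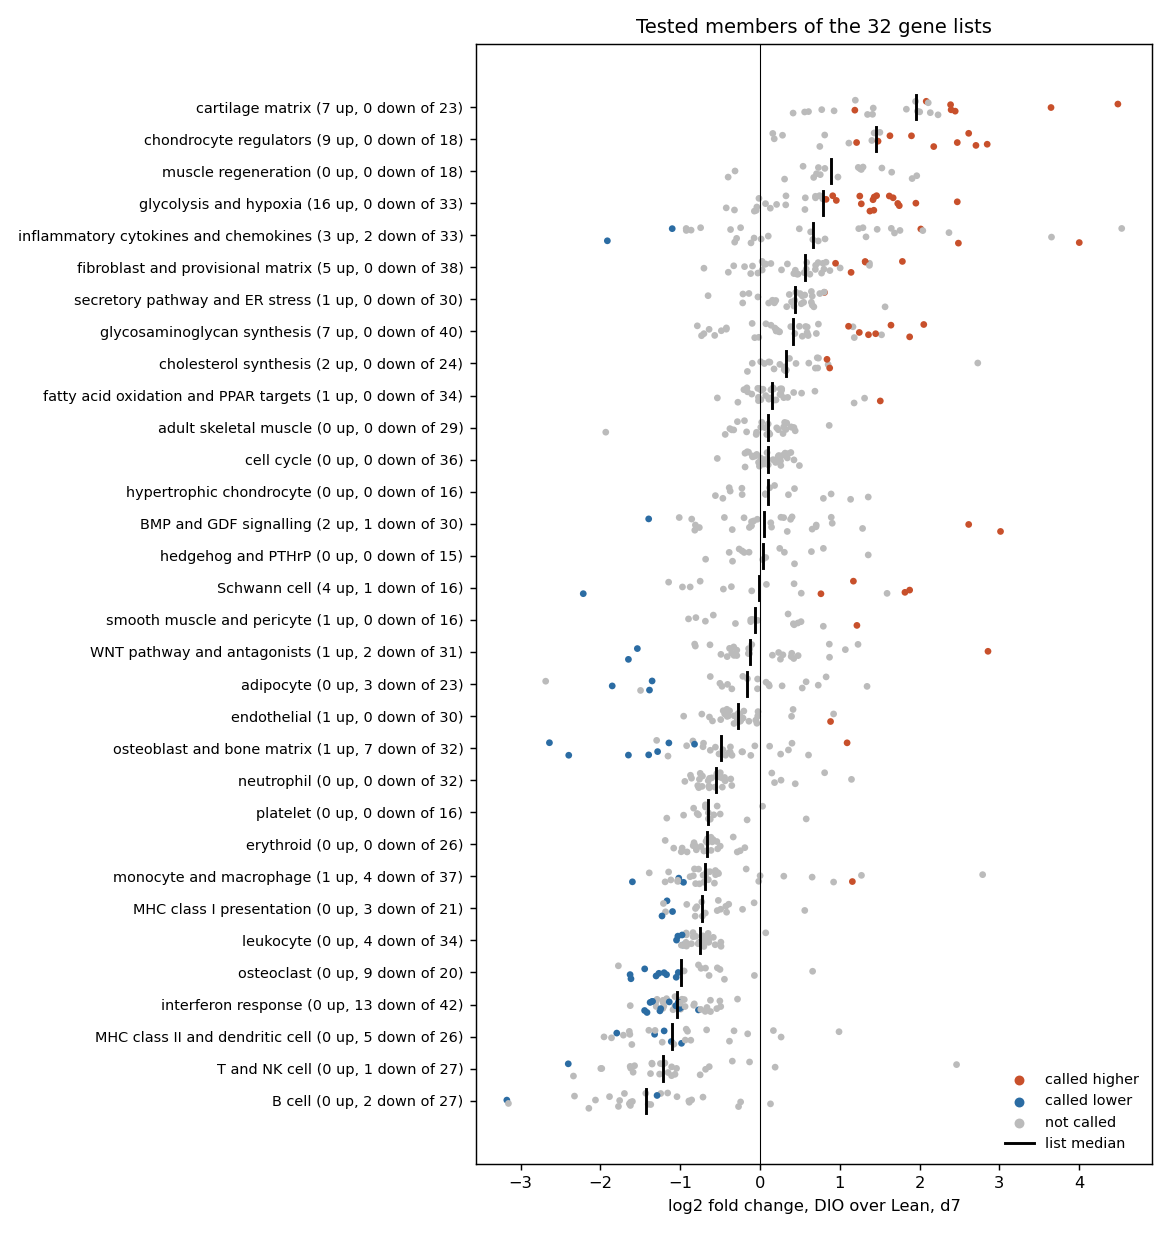
Log2 fold change (DIO over lean, d7) of the tested members of 32 gene lists; each point is 1 gene, coloured where edgeR called it, and the line is the list's median. The medians ran from 1.95 for the cartilage matrix to −1.43 for B cell genes, against −0.00126 over all genes tested.

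Many genes of glycolysis and hypoxia were higher in the DIO callus. Cells short of oxygen stabilise HIF-1, which binds the hypoxia response element and raises glucose uptake, glycolysis and lactate export; the avascular centre of cartilage is a known site of this response. Of 33 tested members 16 rose and 0 fell, the median was 0.786, and 24 did not overlap with higher DIO values. 4 members that rose are printed below with their promoters, because they were the 4 of the list with the smallest p. The sequences are the 250 bases before the transcription start from RefSeq (GRCm38.p6), read 5′ to 3′ on the gene's strand, with matches to the core of the hypoxia response element in capitals, searched as ACGTG on both strands; in Bnip3 the capitals CACGTG hold 1 match on each strand that overlap.
Slc2a1 (chr4:119108495-119108744, plus strand): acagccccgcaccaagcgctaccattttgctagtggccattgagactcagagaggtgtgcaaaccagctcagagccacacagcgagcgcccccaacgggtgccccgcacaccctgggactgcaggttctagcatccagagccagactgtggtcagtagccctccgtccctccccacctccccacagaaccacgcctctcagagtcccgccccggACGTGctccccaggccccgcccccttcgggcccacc
Bnip3 (chr7:138909507-138909756, minus strand): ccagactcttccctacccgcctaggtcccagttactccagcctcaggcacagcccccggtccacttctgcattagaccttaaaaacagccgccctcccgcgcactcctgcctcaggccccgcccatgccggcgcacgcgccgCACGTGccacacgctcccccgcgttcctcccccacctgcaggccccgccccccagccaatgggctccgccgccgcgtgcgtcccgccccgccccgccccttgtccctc
Slc16a3 (chr11:120948817-120949066, plus strand): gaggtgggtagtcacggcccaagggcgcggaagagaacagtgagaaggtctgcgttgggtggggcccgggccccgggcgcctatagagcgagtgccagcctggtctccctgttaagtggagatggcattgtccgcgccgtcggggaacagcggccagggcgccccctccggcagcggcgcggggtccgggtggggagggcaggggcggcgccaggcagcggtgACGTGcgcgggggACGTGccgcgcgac
P4ha2 (chr11:54100674-54100923, plus strand): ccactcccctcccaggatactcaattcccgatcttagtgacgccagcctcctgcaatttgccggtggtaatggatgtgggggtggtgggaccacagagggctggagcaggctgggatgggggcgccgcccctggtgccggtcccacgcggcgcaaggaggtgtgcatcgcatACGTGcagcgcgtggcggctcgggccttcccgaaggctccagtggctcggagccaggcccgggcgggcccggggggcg

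The core occurred in 16.5% of all 27025 promoters, in 21% of the 11427 promoters of genes tested, in 26% of the 169 promoters of genes that were higher and in 14.4% of the 97 promoters of genes that were lower. In the glycolysis and hypoxia list it occurred in 16 of 32 tested members with a promoter (50%) and in 10 of the 16 that rose (62.5%). A match describes the letters only and does not show that a factor bound there. The printed windows of Slc16a3 and P4ha2 lie inside the genes, which start at chr11:120948480 and chr11:54100095 in the gene annotation used here. These windows therefore precede a start within the gene.

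Slc2a1, the glucose importer GLUT1, was at 21.8, 23.6 and 32.6 CPM in the lean and 93.8, 83.3 and 84.4 CPM in the DIO calli. The lowest DIO callus was well above the highest lean callus, and the gene rose by 1.75 ± 0.19 (adjusted p = 0.005488, edgeR). Bnip3, a mitophagy receptor induced by hypoxia, was at 25.7, 19.6 and 25.2 CPM against 94.7, 105 and 73.6 CPM and rose by 1.95 ± 0.19 (adjusted p = 0.0047). P4ha2, a collagen prolyl hydroxylase, was at 99.6, 99.7 and 104 CPM against 273, 290 and 273 CPM, so that the calli of each diet lay close together, and it rose by 1.46 (adjusted p = 0.0047). Slc16a3, the lactate exporter MCT4, was at 66.1, 78.6 and 57.8 CPM against 172, 178 and 176 CPM and rose by 1.38 (adjusted p = 0.008216). Some glycolytic enzymes rose: Pfkl by 1.27, Pfkp by 0.91, Aldoc by 1.42, Pgk1 by 1.25, Pgam1 by 0.96 and Eno1 by 1.43. Pgk1, Pgam1, Eno1 and Bnip3 have near-identical copies or pseudogenes with which reads could be shared, and the copy of Eno1 named Gm4735 also rose by 1.48 (adjusted p = 0.03089). Of known hypoxia targets outside glycolysis, Car9 rose by 2.47 and Car12 by 1.43, both carbonic anhydrases, Egln3, a HIF prolyl hydroxylase, by 1.62, Ankrd37 by 1.73, Adm, adrenomedullin, by 1.67 and P4ha1 by 0.83. The other 17 members were not called, among them the enzymes Ldha, with a difference of 0.75 (adjusted p = 0.1354), Pkm, with 0.70 (adjusted p = 0.1242), and Gpi1, with −0.01 (adjusted p = 0.9869), and the hypoxia targets Vegfa, given above, Egln1, with 0.69 (adjusted p = 0.09858), and Ndrg1, with −0.32 (adjusted p = 0.3843). The count of members called was 3, 4 and 8 without lean mouse 1, 2 and 3, and 11, 12 and 16 without DIO mouse 1, 2 and 3.

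Bone matrix genes went the other way. Of 32 tested genes of osteoblasts and bone matrix 7 fell and 1 rose, the median was −0.491, and 16 did not overlap with lower DIO values. Bglap and Bglap2, which encode osteocalcin of mature osteoblasts, lie next to each other on chromosome 3 (chr3:88383501-88384464 and chr3:88377736-88378699, minus strand) and are 98.9% identical over 439 bases, so their reads could be split. Bglap was at 245, 362 and 121 CPM in the lean and 36.4, 26.9 and 53.4 CPM in the DIO calli. All DIO calli were below the lowest lean callus, and Bglap fell by 2.64 ± 0.39 on the log2 scale (adjusted p = 0.01562, edgeR), with Bglap2 falling by 2.40 (adjusted p = 0.02115). Sost, the osteocyte WNT inhibitor sclerostin, was at 74.9, 115 and 76.2 CPM against 31.9, 22.7 and 30.2 CPM and fell by 1.65 ± 0.22 (adjusted p = 0.01185). Bmp3, an antagonist in the BMP family made by bone cells, fell by 1.4, Col22a1 by 1.28, Col24a1, a collagen of forming bone, by 1.14 and Lifr, a cytokine receptor, by 0.82. The gene that rose was Tnfrsf11b, the decoy receptor osteoprotegerin that blocks RANKL, from 24.6, 15.6 and 24.2 CPM to 48.1, 54.9 and 34.3 CPM (1.09, adjusted p = 0.04871). Col1a1, the main collagen of bone and of fibrous tissue, differed by −0.35 (adjusted p = 0.6055). The count of members called was 2 without lean mouse 1 or 2, 5 without lean mouse 3, 7 and 4 without DIO mouse 1 and 2 and 8 without DIO mouse 3.

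Secreted antagonists of WNT and BMP were among the calls. In the WNT list 2 of 31 genes fell and 1 rose, with a median of −0.131. Dkk1, a secreted inhibitor of the WNT co-receptor, was at 36.3, 36.1 and 33.3 CPM in the lean and 14.1, 11.8 and 10.4 CPM in the DIO calli. The calli of each diet lay close together and Dkk1 fell by 1.54 (adjusted p = 0.008763, edgeR). Sfrp1, a decoy for WNT ligands, was at 37.2, 24.1 and 63.2 CPM against 149, 621 and 132 CPM, with DIO mouse 2 far above the others, and rose by 2.86 (adjusted p = 0.04227). The other gene that fell was Sost. In the BMP and GDF list 2 of 30 rose, Gdf5 and Chrdl2, a BMP antagonist related to chordin (3.01), and Bmp3 fell, with a median of 0.0501. The BMP and GDF list had 1 member called without lean mouse 1 or 2, and the WNT list 2 without lean mouse 1, 2 or 3.

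Osteoclast genes were lower as a group. Of 20 tested genes 9 fell and 0 rose, the median was −0.988, and 16 did not overlap with lower DIO values. Acp5, the osteoclast acid phosphatase TRAP (chr9:22126727-22135711, minus strand), was at 1530, 1661 and 1075 CPM in the lean and 381, 645 and 541 CPM in the DIO calli. All 3 DIO calli were below the lowest lean callus, and Acp5 fell by 1.45 ± 0.26 (adjusted p = 0.02561, edgeR). Oscar, an immunoglobulin-like co-receptor of osteoclasts, was at 34.9, 36.6 and 24.9 CPM against 9.20, 11.9 and 10.1 CPM and fell by 1.63 ± 0.22 (adjusted p = 0.01185). Dcstamp and Ocstamp, which are needed for fusion, fell by 1.62 and 1.05. Among the genes of resorption, Ctsk, which digests collagen, fell by 1.17, Mmp9 by 1.27, and the proton pump subunits Atp6v0d2 and Atp6v1b2 by 1.30 and 1.03. Rufy4 fell by 1.2. Tnfsf11, the ligand RANKL, differed by 0.66 (adjusted p = 0.2765), Tnfrsf11a, its receptor RANK, by −0.64 (adjusted p = 0.1656) and Nfatc1, the master factor of osteoclasts, by −0.07 (adjusted p = 0.8688). Without lean mouse 1 or lean mouse 2 the list had 0 members called, and without DIO mouse 1 it had 2. Without DIO mouse 3, 11 of 21 tested genes fell and 1 rose.

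Interferon-stimulated genes were lower in the DIO callus. Interferons act on target genes through the interferon-stimulated response element, and the genes they raise restrict viruses and increase antigen presentation. Of 42 tested genes 13 fell and 0 rose, all 42 had the lower mean in the DIO callus, the median was −1.04, and 36 did not overlap. Oas2, an antiviral oligoadenylate synthetase, was at 38.2, 50.8 and 30.7 CPM in the lean and 17.1, 11.3 and 16.4 CPM in the DIO calli and fell by 1.42 ± 0.24 (adjusted p = 0.02293, edgeR). Zbp1, a sensor of Z-form nucleic acid, was at 15.3, 17.9 and 16.5 CPM against 6.98, 7.15 and 5.38 CPM and fell by 1.35 (adjusted p = 0.01967). In neither gene did the diets overlap. Parp14 fell by 1.06, Oasl2 by 1.26, Irf9 by 0.77, Mx1 by 1.35, Ifih1 by 1.02, Cmpk2 by 1.45 and Rtp4 by 1.14. The immunity GTPases Iigp1, Irgm1 and Gbp4 fell by 1.38, 0.98 and 1.25, and Bst2, the tetherin that holds virus particles on the cell, by 1.01. 2 further interferon-inducible genes were among the largest decreases, Ifi213 (2.38) and Ifi206 (2.03), and Ifi213 shares 96.1% identity with Ifi208 over 983 bases. The count of interferon genes called was 0 without lean mouse 1 or 2, 8 without lean mouse 3, 3 and 4 without DIO mouse 1 and 2 and 18 without DIO mouse 3; DESeq2 called 28 on all 6 libraries.

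The promoters of Bst2 and Irgm1 are shown because they were the called members of this list whose windows held the core of the response element, searched as TTTC, any 2 bases and TTTC again on both strands and shown in capitals. They are the 250 bases before the start from RefSeq (GRCm38.p6), on the gene's strand, where the core reads in reverse complement, and 2 matches overlap in each.
Bst2 (chr8:71537473-71537722, minus strand): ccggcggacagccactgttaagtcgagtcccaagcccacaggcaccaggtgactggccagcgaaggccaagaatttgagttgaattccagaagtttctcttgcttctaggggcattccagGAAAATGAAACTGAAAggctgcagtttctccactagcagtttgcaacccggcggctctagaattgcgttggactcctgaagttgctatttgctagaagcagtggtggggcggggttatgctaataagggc
Irgm1 (chr11:48871421-48871670, minus strand): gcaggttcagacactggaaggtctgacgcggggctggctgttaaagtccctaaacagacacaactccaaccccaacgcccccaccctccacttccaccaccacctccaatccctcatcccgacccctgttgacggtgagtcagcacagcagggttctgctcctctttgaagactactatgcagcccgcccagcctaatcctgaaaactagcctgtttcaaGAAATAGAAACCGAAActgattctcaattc

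Irgm1 was at 43.2, 47.8 and 40.5 CPM in the lean and 20.3, 25.2 and 21.0 CPM in the DIO calli, and Bst2 at 86.1, 100 and 57.2 CPM against 37.1, 41.5 and 42.5 CPM. The element occurred in 3.06% of all promoters and in 2.78% of those of genes tested. In the list it occurred in 17 of the 30 tested members with a promoter (56.7%) and in 2 of the 6 called ones (33.3%). It was in 8 of the 97 promoters of genes that were lower (8.25%) and in 7 of the 169 of genes that were higher (4.14%).

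Transcripts of antigen presentation genes were lower too. In the MHC class II and dendritic cell list 5 of 26 fell and 0 rose (median −1.1), and in the MHC class I list 3 of 21 fell (median −0.723). Cd74, the invariant chain that guides class II molecules, was at 464, 435 and 337 CPM in the lean and 141, 127 and 226 CPM in the DIO calli. The highest DIO callus was DIO mouse 3 and it stayed below the lowest lean callus, and Cd74 fell by 1.32 ± 0.25 (adjusted p = 0.02894, edgeR). The class II chains H2-Aa, H2-Ab1 and H2-Eb1 fell by 1.11, 0.98 and 1.2, and Ciita, the factor that switches the class II genes on, by 1.80. For class I, Nlrc5, the corresponding factor, fell by 1.23, Tap1, a peptide transporter, by 1.10 and H2-Q4 by 1.17. Without lean mouse 1 or lean mouse 2 neither list had a member called and without lean mouse 3 the counts were 3 and 0, whereas without DIO mouse 3 they had 11 and 10; without DIO mouse 1 each had 1, and without DIO mouse 2 the counts were 2 and 1.

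Leukocyte genes were also lower in the DIO callus. Of 34 tested pan-leukocyte genes 4 fell and 0 rose, the median was −0.753, and 21 did not overlap with lower DIO values. Ptprc, the CD45 antigen of all leukocytes, was at 112, 134 and 159 CPM in the lean and 74.9, 53.9 and 78.3 CPM in the DIO calli and fell by 0.97 ± 0.20 (adjusted p = 0.04176, edgeR). All DIO calli were below the lean calli. Cd48, Btk and Lcp2 fell by 0.98, 1.05 and 1.03. In the monocyte and macrophage list 4 of 37 fell and 1 rose (median −0.692): Csf1r, the receptor for M-CSF, fell by 1.02, Cd68 by 0.96, Mrc1, the mannose receptor, by 1.02 and Gpnmb by 1.6, while F13a1, coagulation factor XIII A, rose by 1.16. Without DIO mouse 3, 6 of 39 of these genes fell and 1 rose (median −0.675). The list had 0 members called without lean mouse 1 or 2, 10 without lean mouse 3, 1 without DIO mouse 1 and 2 without DIO mouse 2. Mmp12, the macrophage elastase, was at 12, 18.3 and 18.4 CPM against 4.08, 1.86 and 1.70 CPM and fell by 2.66 (adjusted p = 0.01443), and by 2.42 without DIO mouse 3; it was not called without lean mouse 2. Of T and NK cell genes 1 of 27 fell, Sh2d2a (by 2.40, list median −1.22), near the share called over all genes (2.32%). Of B cell genes 2 of 27 fell, with a list median of −1.43. They were Blnk (1.29) and Igll1, the surrogate light chain of B cell precursors (3.17).

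Lists of blood and marrow cells depended on DIO mouse 3. Summed B cell genes were 553, 683 and 688 CPM in the lean and 414, 167 and 886 CPM in the DIO calli, so that DIO mouse 3 exceeded every lean callus while the other DIO mice were below them. The neutrophil list had 0 of 32 genes called by edgeR and by DESeq2, with 0 under an unadjusted p of 0.05 and a median of −0.555, and the erythroid list 0 of 26 by either tool, with 1 under an unadjusted p of 0.05 and a median of −0.665. Leaving out DIO mouse 3 gave 5 neutrophil genes lower (median −1.18), 22 erythroid genes lower (median −2.34), 15 B cell genes lower (median −2.19), 22 leukocyte genes lower (median −1.03) and 6 T and NK cell genes lower (median −1.81). Platelet genes had 0 of 16 called by edgeR, with 3 under an unadjusted p of 0.05, 1 called by DESeq2 and 2 lower without DIO mouse 3. Leaving out lean mouse 1, lean mouse 2, DIO mouse 1 or DIO mouse 2 gave 0 leukocyte genes, and leaving out lean mouse 3 gave 1. Of T and NK cell genes 0 were called when any callus but DIO mouse 3 was left out, and of B cell genes 0 without lean mouse 1, lean mouse 2 or DIO mouse 2 and 1 without lean mouse 3 or DIO mouse 1. The part that blood or marrow in the harvested tissue had in these differences was not tested.

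**Figure D3:**
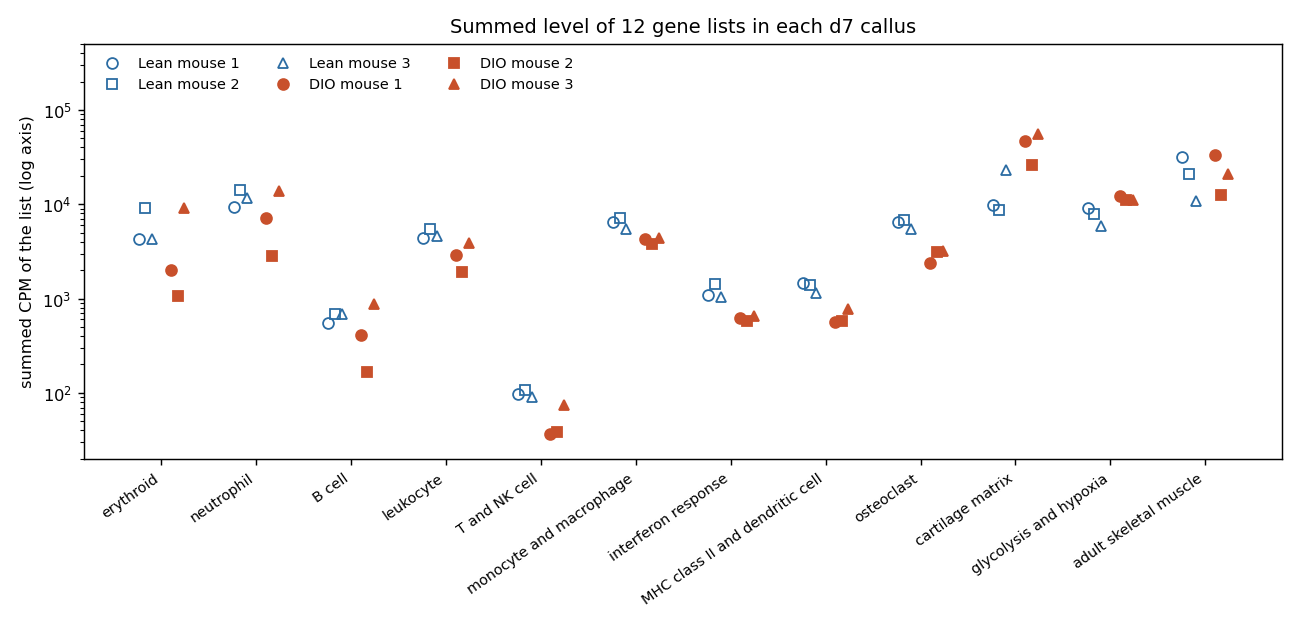
Summed level of 12 gene lists in each d7 callus, in CPM on a logarithmic axis; each point is 1 mouse, coloured by diet. The osteoclast sums were 5521 to 6785 CPM in the lean and 2356 to 3193 CPM in the DIO calli, whereas the erythroid sums of the DIO calli ran from 1065 to 9197 CPM.

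Inflammatory mediators varied widely among the DIO calli. Of 33 tested genes 3 rose and 2 fell, with a median of 0.661 that was −0.093 without DIO mouse 1 and 1.06 without DIO mouse 3. Cxcl5, a chemokine for neutrophils, was at 3.13, 2.34 and 3.41 CPM in the lean and 70.2, 68.9 and 3.41 CPM in the DIO calli. DIO mouse 3 was at the lean level and the other DIO mice were far above it, and the log2 fold change was 4.0 ± 0.85 (adjusted p = 0.04374, edgeR). Cxcl2 was at 61.4 CPM in DIO mouse 1 and at or below 1.36 CPM in the other 5 calli, and Acod1 at 86.8 CPM there against at most 3.82 CPM elsewhere; neither was called. Ptgs2, the inducible cyclooxygenase, rose by 2.02 and Il11, a cytokine of the IL-6 family, by 2.49. Cxcl9, an interferon-induced chemokine for T cells, fell by 1.91, and Cxcl12, which retains progenitors in marrow, was at 470, 655 and 606 CPM against 255, 232 and 320 CPM and fell by 1.10 (adjusted p = 0.02894). Without lean mouse 1, lean mouse 2 or DIO mouse 2, 0 of the list were called, without lean mouse 3 or DIO mouse 1 1, and without DIO mouse 3 13.

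Adipocyte genes were mixed, and none was called higher in the obese animals' callus. Of 23 tested genes 3 fell and 0 rose, with a median of −0.158. The DIO mean was higher for 9 and lower for 14 of them. The calli did not overlap for 5 with higher and 4 with lower DIO values. The summed level was 1818 to 1896 CPM in the lean and 1707 to 2006 CPM in the DIO calli. Adipoq, the hormone adiponectin (chr16:23146536-23158028, plus strand), was at 21.0, 30.2 and 21.7 CPM in the lean and 5.06, 4.22 and 10.9 CPM in the DIO calli. The diets did not overlap, and Adipoq fell by 1.85 ± 0.35 (adjusted p = 0.0293, edgeR). Pparg, the adipocyte master factor, fell by 1.39 and Lpl, lipoprotein lipase, by 1.35. Fabp4, the adipocyte fatty acid carrier, was at 149, 163 and 121 CPM against 165, 136 and 122 CPM and differed by −0.03 (adjusted p = 0.9534), and Lep, leptin, at 0 to 1.17 CPM, was too low to test. Among 34 genes of fatty acid oxidation 1 was called, near the share over all genes (2.32%). It was Acot1, a thioesterase with a near copy in Acot2, which rose by 1.51. Of 24 cholesterol synthesis genes Fdft1 and Stard4 rose by 0.84 and 0.87, with a median of 0.325 and 11 genes without overlap. Each of these 3 lists had 0 members called without lean mouse 1 or 2.

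Lists of other tissues of the limb differed in their calls. In the Schwann cell list 5 of 16 were called, 4 of them higher, with a median of −0.0123. The DIO mean was higher for 8 and lower for 8 of the list. The calli did not overlap for 5 with higher and 6 with lower DIO values. S100b, which chondrocytes also express, was at 18.9, 22.8 and 26.5 CPM in the lean and 47.1, 60.1 and 46.4 CPM in the DIO calli and rose by 1.17 (adjusted p = 0.01989, edgeR), Pmp22 by 0.76, Ncmap by 1.82 and Gldn by 1.88. Without lean mouse 1 or 2, 0 of the list were called. Of 30 endothelial genes 1 was called, near the share over all genes (2.32%): Apln, the ligand apelin, rose by 0.88. The list went the other way, with a median of −0.279 and the lower mean in the DIO callus for 26 of 30. The calli did not overlap for 11 with lower and 1 with higher DIO values. Leaving out any callus but DIO mouse 3 gave 0 endothelial calls. Of smooth muscle and pericyte genes Cspg4, the NG2 proteoglycan that is also made by chondrocytes, rose by 1.21 (1 of 16, median −0.0635). In that list 5 genes did not overlap with lower and 1 with higher DIO values. Adult skeletal muscle had 0 of 29 genes called by edgeR, with 1 under an unadjusted p of 0.05, 1 called by DESeq2 and a median of 0.102; its summed level was 31660, 21110 and 10850 CPM in the lean and 33090, 12550 and 21000 CPM in the DIO calli, so it varied among the mice of each diet. Muscle regeneration genes had 0 of 18 called by edgeR, with 11 under an unadjusted p of 0.05, 6 called by DESeq2 and a median of 0.894. Cell cycle genes had 0 of 36 called by edgeR and by DESeq2, 0 under an unadjusted p of 0.05, and a median of 0.0974.

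The remaining large decreases did not belong to a list. Nyap2, a neuronal adaptor of PI3-kinase, fell by 2.91, Rab19, a small GTPase, by 2.03 and Slc18a1, a vesicular monoamine transporter, by 1.90 on the log2 scale. None of these genes overlapped between the diets.

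The other days, on which different mice were sampled, were tested in the same way to place d7. Of the genes tested on d5, 21 were higher in the DIO callus (0.134%) and 149 lower (0.948%). 8 of the 221 genes higher on d7 were also higher on d5 (3.62% of the d7 and 38.1% of the d5 genes), and 27 of the 145 lower genes were also lower on d5 (18.6% and 18.1%). On d3 and d10 edgeR called 0 genes, with 2374 and 1082 genes under an unadjusted p of 0.05, whereas DESeq2 called 134 higher and 594 lower on d3 and 6 higher and 41 lower on d10. The genes higher on d7 had a median log2 difference of 0.307 on d3, 0.698 on d5 and −0.879 on d10, and 196 of 206 tested were lower in the DIO mean on d10. The genes lower on d7 had medians of −0.34, −0.567 and 0.325, and 130 of 144 were higher on d10.

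The lists differed in their course. For the cartilage matrix list the median went from 0.607 (d3) through 1.1 (d5) to 1.95 (d7), and stood at −2.67 on d10. The interferon median was −0.497, −1.3, −1.04 and 0.389, with 28 of 42 genes lower on d5 against 13 on d7. The osteoclast medians were −0.116, 0.0555, −0.988 and 0.0875, with 0 genes called on the other 3 days. Glycolysis and hypoxia had medians of 0.184, 0.317, 0.786 and 0.0438, also with 0 called on the other days. A call on one day and none on another does not show that the days differed.

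**Figure D4:**
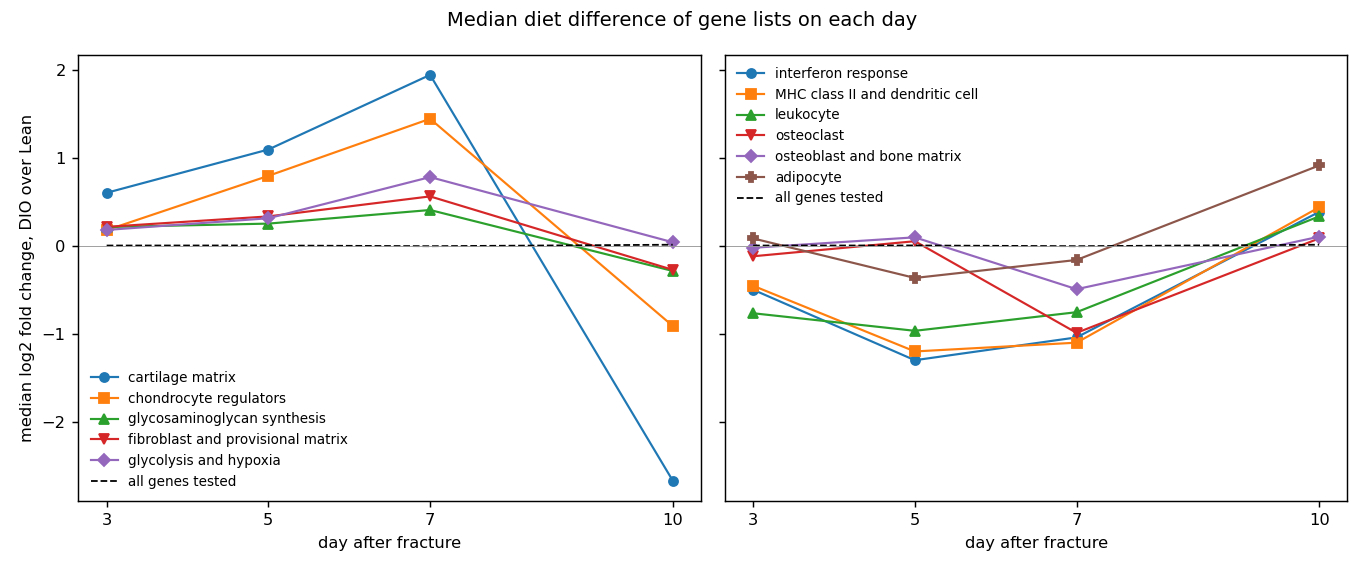
Median log2 fold change (DIO over lean) of 11 gene lists on d3, d5, d7 and d10; the dashed line is the median of all genes tested. The cartilage matrix median was 1.95 on d7 and was −2.67 on d10, and the osteoclast median was −0.988 on d7 and close to the all-gene line on the other days.

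Whether the gap between the diets itself shifted from one day to another was tested over 17057 genes, with the 24 d3, d5, d7 and d10 libraries fitted jointly. From d5 to d7 1 gene passed (0.00586%; 647 under an unadjusted p of 0.05), and it was Oscar: its mean went from 12.8 to 32.8 CPM in the lean callus and from 21.0 to 10.6 CPM in the DIO callus, a change of −2.35 in the log2 difference (adjusted p = 0.008271, edgeR). No gene passed this test without d5 lean mouse 2 or without d7 DIO mouse 1, whereas 4, 5 and 4 did without d7 lean mouse 3, DIO mouse 2 and DIO mouse 3 and 2 without d5 DIO mouse 2. From d3 to d7 0 genes passed by edgeR, with 1433 under an unadjusted p of 0.05 and 54 called by DESeq2. From d7 to d10 865 genes passed, 290 with a larger (1.7%) and 575 with a smaller (3.37%) DIO value relative to lean on d10. Leaving out 1 library moved this count between 257, without d10 lean mouse 1, and 1660, without d10 lean mouse 3. It was 568 and 320 without d7 lean mouse 1 and 2, 429 and 1414 without d7 DIO mouse 2 and 3, 1311 without d10 lean mouse 2 and 342 without d10 DIO mouse 1. Of the 17 genes followed across days, 8 were fixed reference genes and 9 were named for their d7 values, so that for the 9 the d7 side of the change is not independent of how they were chosen; all 17 were picked for the course after their values were seen.

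Col2a1 means were 128, 2895, 4974 and 20880 CPM in the lean callus on d3, d5, d7 and d10, and 196, 7752, 19250 and 2409 CPM in the DIO callus. The DIO mean of d7 was near the lean mean of d10, but the DIO calli of d7 varied widely and these 2 groups were not tested against each other. The DIO mean of d10 was far lower, and the change in the log2 difference from d7 to d10 was −5.07 (adjusted p = 0.01426, edgeR). Sox9 went from 157 CPM on d7 to 19.5 CPM on d10 in the DIO and from 42.0 to 67.3 CPM in the lean callus, a change of −3.69 (adjusted p = 0.004874). Acp5 means were 256, 573, 1451 and 5564 CPM in the lean callus, and 235, 697, 531 and 5902 CPM in the DIO callus. The DIO mean on d7 lay below that of d5 and by d10 exceeded the lean mean, a change of 1.54 (adjusted p = 0.01002). Bglap was lower in the DIO callus on d7, at 39.5 against 248 CPM, and at 470 against 392 CPM on d10, a change of 2.92 (adjusted p = 0.03627). Bnip3 was at 92.4 against 23.9 CPM on d7 and 27.1 against 30.1 CPM on d10, a change of −2.10 (adjusted p = 0.002142). Col10a1 and Ptprc did not pass this test, with changes of −3.40 (adjusted p = 0.1469) and 1.55 (adjusted p = 0.05829).

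**Figure D5:**
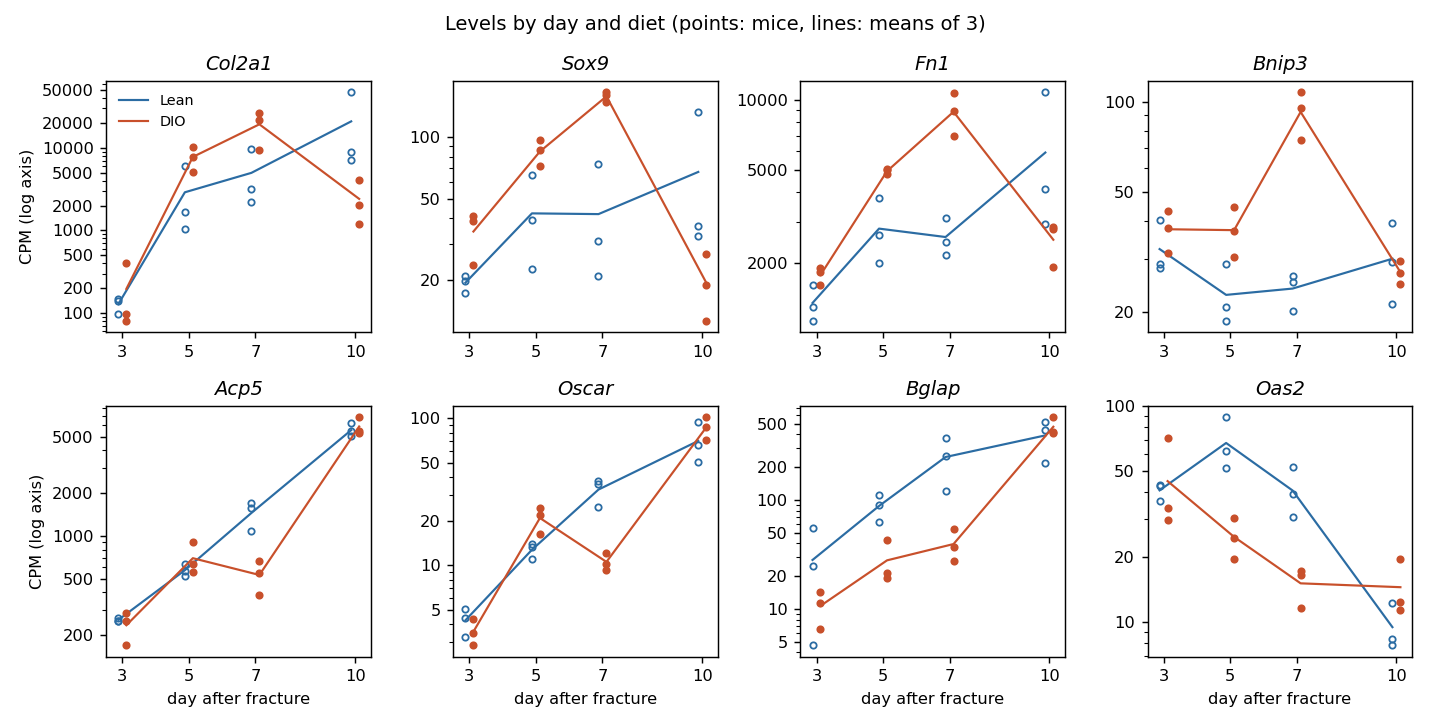
Level of 8 genes on d3, d5, d7 and d10, in CPM on a logarithmic axis; points are mice, coloured by diet, and lines join the means of 3 mice. Col2a1 in the DIO callus peaked at 19250 CPM on d7 and was 2409 CPM on d10, and the Oscar mean in the DIO callus was 10.6 CPM on d7 against 21.0 CPM on d5.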

How the data were processed

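Poly(A) RNA from fracture callus was sequenced with a stranded mRNA kit. The authors aligned the reads to GRCm38 with HISAT2 2.1.0 and counted them per gene with HTSeq, and the deposited values are raw counts; the version, strand setting and annotation of HTSeq are not given in the sources used here. Of 43629 identifiers 42548 matched GENCODE M21, and 0.103% of the counts lay on the rest. Counts of the 6 d7 libraries were filtered by filterByExpr, scaled by TMM and tested with edgeR 4.0.16 (quasi-likelihood F-test, two-sided, R 4.3.3), with diet as the only term and Benjamini-Hochberg adjustment over all genes tested. CPM are counts scaled to the TMM-adjusted library size. "Rose" and "fell" mean an adjusted p under 0.05. Changes between days were interaction contrasts over 24 libraries. DESeq2 1.42.0 and limma 3.58.1 gave alternatives. The scripts were tested on simulated data. Near copies of transcripts were sought with blastn 2.17.0 (at least 95% identity over 100 bases and 20% of the transcript).

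The comparison and the 32 gene lists were chosen with earlier results of these data known. Named genes were the 12 largest increases and 12 largest decreases with a mean of at least 1 CPM and no overlap, the 4 genes of each list with the smallest p (those called first), and fixed reference genes; further list members were named after their values were seen. Same-numbered mice did not deviate together, with correlations of 0.0391, −0.18 and −0.11, so no pairing was used. A called member of 1 list is not reported here.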

Additional observations from a re-analysis of the deposited data

Results flagged for a closer look

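The difference between DIO and lean callus changed between days for 1 gene from d5 to d7 and for 865 genes from d7 to d10, by the interaction test of edgeR over 24 libraries. These genes are given because their diet difference on d7 differed from that on a neighbouring day.

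Among the genes followed across days, 6 of cartilage, its sulfation and fibronectin matrix had a lower diet difference on d10 than on d7: the log2 diet difference changed from d7 to d10 by −8.354 for Ucma, −5.068 for Col2a1, −4.973 for Acan, −3.692 for Sox9, −3.335 for Papss2 and −3.026 for Fn1. Slc2a1 and Bnip3, of glucose uptake and hypoxia, changed by −2.581 and −2.099.

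The genes lower on d7 moved the other way, by 3.921 for Adipoq, 3.642 for Mmp12, 2.915 for Bglap, 2.039 for Oas2, 1.94 for Oscar, 1.834 for Dcstamp and 1.536 for Acp5. Oscar was also the gene whose difference changed from d5 to d7, by −2.352. Some of these genes were fixed reference genes and the others were named for their d7 values, and all were picked for this course after their values were seen.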

How the results depend on the processing

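The count of 366 genes on d7 became 944 with DESeq2, 724 with no filter but 1 count, 665 with the 24 libraries of d3 to d10 and 675 with all 30 libraries in 1 fit, and 41 against a fold of 1.5 with glmTreat (36 higher, 5 lower). It ranged from 29 to 936 when 1 callus was left out, and was 374 with DESeq2's size factors in edgeR, 390 with upper-quartile factors, 364 with a filter at 1 CPM and 404 with limma-voom. The share of higher genes was 60.4% and was 53.8% with DESeq2 and 51.6% with all 30 libraries. The single gene whose diet difference changed from d5 to d7 became 2 with upper-quartile factors, 13 with DESeq2 and 3 with no filter, with 0 to 5 when 1 library was left out. The 865 genes from d7 to d10 became 1496 with DESeq2 and 283 with the 12 libraries of both days alone, with 257 to 1660 when 1 library was left out. The 0 genes from d3 to d7 became 54 with DESeq2, 10 with no filter and 2 with the 12 libraries of both days, with 0 to 16 when 1 library was left out. With the replicate block, a fit in which mice of the same number were paired although the labels give no such pairing, 320 genes were called on d7 (219 higher, 101 lower, 254 of them among the 366), 838 from d7 to d10 and 1 from d3 to d7. Among the named genes followed through the alternatives, only the Vegfa difference changed sign, without lean mouse 2 and without DIO mouse 1. It ranged from −0.09212 to 0.2361 when 1 callus was left out. Fabp4, Gpi1, Nfatc1, Pkm, Egln1, Ndrg1, Tnfrsf11a, Cxcl2 and Acod1 were not among the genes followed. Over the genes followed and the alternatives, 1840 values kept their direction and side of the threshold, 672 no longer passed it and 61 newly did. The cause of these changes was not tested. With 3 calli per diet, a difference that missed the threshold does not show that the diets were alike.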
